A study of Homo sapiens with 4 samples.

Results

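The genes described here are 10 members of the Notch pathway, the receptors NOTCH1, NOTCH2 and NOTCH3, the ligands JAG1 and JAG2, the target genes HES1, HEY1 and NRARP, and RBPJ and MAML1 of the nuclear complex. They were chosen by gene symbol and not by a threshold on their values, but with earlier results of these data known. All 10 were listed among 16370 genes of the 4 libraries. Expression was measured by sequencing of mRNA libraries from 4 human cultures with 1 library each. Of these, Hep3B and Huh7, both long-established lines of hepatoma origin, made up the hepatocellular carcinoma (HCC) group. The hepatic cancer stem cell (HCSC) group held the stem-like cultures raised from them, Hep3B-C from Hep3B and Huh7-C from Huh7. The labels name no transgene, deletion or drug for any culture. With 1 library of each line there was no replicate of a culture, so every comparison within a pair is between libraries and not between conditions.

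Notch signaling passes between touching cells. A JAG or DLL ligand on a cell binds a NOTCH receptor on its neighbour, the receptor is cut by an ADAM protease and then by gamma-secretase, and the released intracellular part enters the nucleus. There it joins the DNA-binding protein RBPJ and a MAML coactivator and switches on genes of the HES and HEY families and NRARP. In liver the pathway is best known for directing progenitors towards the bile duct lineage.

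The total gene count of the Hep3B pair was 2896418 in the parental line and 4641927 in Hep3B-C, and that of the Huh7 pair was 4537510 in the parental line and 4333808 in Huh7-C. Levels are given as CPM, the count of a gene scaled to that total, or, between genes, as RPKM, the CPM per kilobase of gene length. A level of 3 counts corresponded to between 0.646 and 1.04 CPM. The 8 hepatocyte markers summed to between 25997 and 62636 CPM, but their makeup differed between the lines. ALB was at 19540 and 18470 CPM in the Hep3B pair and at 106 and 267 CPM in the Huh7 pair. In Huh7 and Huh7-C, AFP was at 5.73 and 2.77 CPM (26 and 12 counts) and TTR at 2.87 and 3.0 CPM (13 counts in each). These levels were low but above the level of 3 counts. SERPINA1 made up 40520 of the 48693 CPM in Huh7. The summed level of 6 biliary markers was 435 CPM in Hep3B and 149 to 157 CPM in the others. Summed fibroblast and endothelial markers reached at most 45.0 and 21.5 CPM. The blood cell list summed to between 186 and 451 CPM, with PTPRC and HBB not listed.

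A gene was called up- or down-regulated when the Audic-Claverie test, a Poisson test of the pair of counts, gave an adjusted p of 0.01 or less and the level differed at least 2-fold. Of 15480 genes, 13.2% were called up-regulated and 30.4% down-regulated in Hep3B-C compared with Hep3B (43.6% in either direction). Of 14807 genes, 4.19% were called up-regulated and 4.15% down-regulated in Huh7-C compared with Huh7 (8.33% in either direction). The median log2 fold-change of all genes was -0.55 in the Hep3B pair and 0.06 in the Huh7 pair. Here and below, this median covers genes with at least 20 counts in the pair, 11433 and 11134 genes. The groups by GC content and length, and the ranks of single genes by fold-change, used the same limit. With TMM library sizes, an alternative scaling that centres the bulk of the genes, the Hep3B median was 0.04 and the share of calls that were up-regulated moved from 30.3% to 54.5%. The change in the Hep3B pair also moved with base composition. The median log2 value was -1.62 over the 20% of genes with the lowest transcript GC content and 0.97 over the 20% with the highest, and it was 0.5 over the shortest and -1.5 over the longest 20% of genes. The corresponding groups of the Huh7 pair had medians between 0.00 and 0.13 by GC content and between -0.19 and 0.38 by length. Changes in the Hep3B pair are therefore given as measured and also relative to the median of all genes. Removal of the length trend, or of GC and length trends, kept the overall shift by design, because each trend was centred on its own median. The Hep3B medians of -0.47 and -0.54 under these settings follow from that step. The part of length or GC content in the shift was not tested.

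The promoters of HES1, NRARP and JAG1 are shown because these genes are the most abundant target, the target that changed in the Huh7 pair and the ligand with the largest change. RefSeq windows on GRCh38.p14, from 250 bases before to 50 bases after the start site, were found for 9 of the 10 genes, and the 250 bases before the start are printed 5′ to 3′ on the strand of the gene. They lie at chr3:194135898-194136147 on the plus strand for HES1, at chr9:137302272-137302521 on the minus strand for NRARP and at chr20:10674000-10674249 on the minus strand for JAG1. Capitals mark TGGGAA, the core letters of the RBPJ motif, searched on both strands.
HES1: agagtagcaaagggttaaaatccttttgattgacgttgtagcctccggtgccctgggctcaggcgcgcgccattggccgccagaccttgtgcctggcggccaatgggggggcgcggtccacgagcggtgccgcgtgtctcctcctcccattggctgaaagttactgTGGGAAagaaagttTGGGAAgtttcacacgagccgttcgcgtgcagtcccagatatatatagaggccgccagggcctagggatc
NRARP: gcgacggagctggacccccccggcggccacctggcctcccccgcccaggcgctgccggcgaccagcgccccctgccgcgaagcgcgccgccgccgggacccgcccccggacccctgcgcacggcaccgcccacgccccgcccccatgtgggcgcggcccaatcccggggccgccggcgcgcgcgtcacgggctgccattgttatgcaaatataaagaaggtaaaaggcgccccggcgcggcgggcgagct
JAG1: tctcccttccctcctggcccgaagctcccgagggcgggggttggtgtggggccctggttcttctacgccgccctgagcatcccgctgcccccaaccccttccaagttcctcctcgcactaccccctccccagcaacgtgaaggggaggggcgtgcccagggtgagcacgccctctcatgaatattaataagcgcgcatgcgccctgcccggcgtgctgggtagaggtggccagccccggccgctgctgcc
The HES1 window held 2 copies, starting 84 and 70 bases before the start site. Of all 35116 windows of the table, 24% held at least 1 copy and 3.8% held 2 or more. Among the 13 windows of the 9 genes, the only other one with the motif was 1 of the 5 RBPJ windows, with 2 copies. A match of letters is a description of the window, and no binding was measured here.

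Of the 10 genes, 0 were called up-regulated and 5 were called down-regulated in Hep3B-C, beside 13.2% and 30.4% of all genes (5 in either direction, beside 43.6%). The 5 were JAG1, NOTCH2, NOTCH3, RBPJ and MAML1. The median log2 fold-change of the 10 genes was -1.42, beside -0.55 over all genes. NOTCH1, NOTCH2, NOTCH3, JAG1, JAG2 and MAML1, with 5077 to 11425 bases, belong to the group of longest genes above, whose median was -1.5. They include all of the 5 called genes except RBPJ. The part of gene length in the median of the 10 genes was not tested. NRARP and NOTCH1, 2 of the 10 genes, were called up-regulated in Huh7-C and 0 down-regulated, beside 4.19% and 4.15% of all genes (8.33% in either direction). The median of the 9 genes with more than 3 counts in a library of that pair was 0.50 (0.68 with HEY1), beside 0.06 over all genes.

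**Figure D1:**
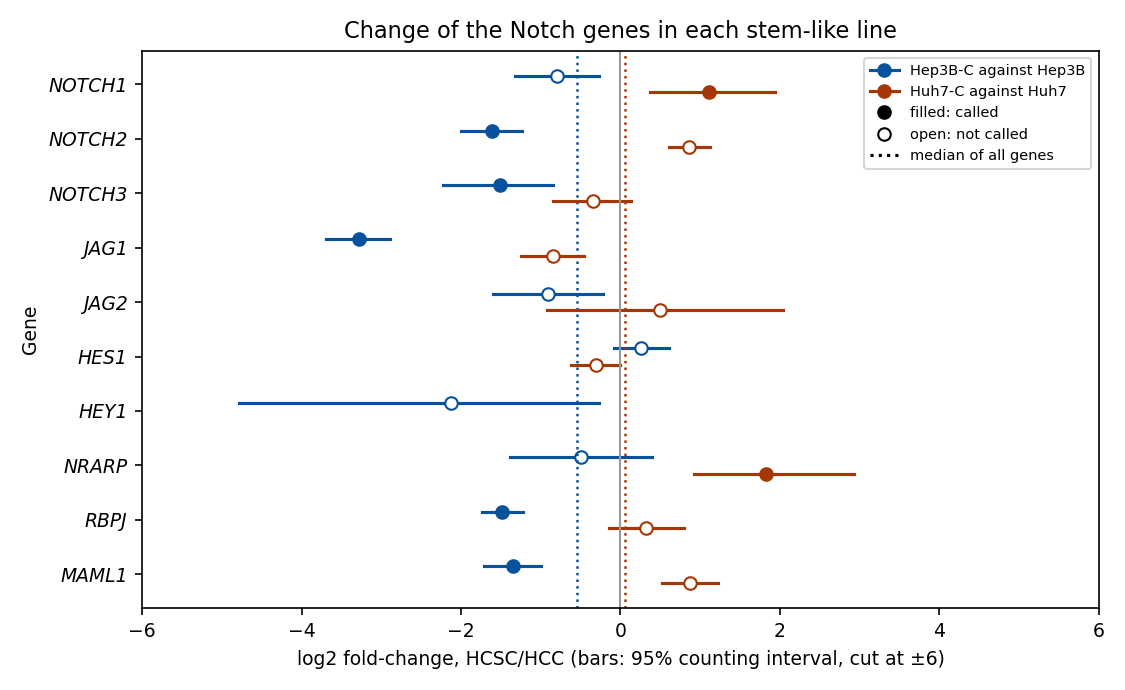
Log2 fold-change of each gene (HCSC over HCC) in the Hep3B pair (blue) and the Huh7 pair (brown), with 95% counting intervals as bars, filled points for called genes and dotted lines at the median of all genes. HEY1 is left out of the Huh7 pair because it had 0 and 1 counts. JAG1 lies at -3.28 in the Hep3B pair, farthest from its dotted line, and NRARP lies highest in the Huh7 pair at 1.83.

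Of the 3 receptors, NOTCH2 and NOTCH3 were called down-regulated in Hep3B-C and NOTCH1 up-regulated in Huh7-C. NOTCH1 had 65 counts in Hep3B (22.4 CPM), 60 in Hep3B-C (12.9 CPM), 22 in Huh7 (4.85 CPM) and 46 in Huh7-C (10.6 CPM). The ratio of HCSC to HCC was 0.576 in the Hep3B pair (95% Clopper-Pearson interval 0.399 to 0.831) and 2.19 in the Huh7 pair (1.29 to 3.82). These intervals, like all those given, cover counting error only. NOTCH1 was not called in the Hep3B pair, where its log2 fold-change of -0.80 (SE 0.26) was -0.24 relative to the median of all genes. It was called up-regulated in Huh7-C (log2 fold-change 1.11, SE 0.37, Audic-Claverie adjusted p = 0.0098), a call that held in 2 of 8 alternatives. The value was 1.07 with TMM library sizes, 0.65 with the length trend removed and 0.57 with GC and length trends removed. Its ratio in the Hep3B pair was 0.870 with TMM library sizes, with an interval of 0.602 to 1.26 that includes 1.

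NOTCH2 was the receptor with the highest level per kilobase in every library, although its interval overlapped that of NOTCH1 in Hep3B-C. It had 57.3 CPM in Hep3B, 18.7 CPM in Hep3B-C, 45.4 CPM in Huh7 and 82.6 CPM in Huh7-C, from 166, 87, 206 and 358 counts. Hep3B-C was thus the lowest of the 4 libraries and Huh7-C the highest. The ratio was 0.327 in the Hep3B pair (0.249 to 0.426), a called decrease with a log2 fold-change of -1.61 (SE 0.19), or -1.06 relative to the median. The Huh7 ratio was 1.82 (1.53 to 2.17), short of the 2-fold threshold, and its log2 fold-change of 0.86 became 0.26 with GC and length trends removed. NOTCH2 is a long transcript, listed with 11425 bases, and its Hep3B value was -0.23 with the length trend removed and -0.69 with both trends removed, neither of them called. NOTCH2 shares near-identical exons with NOTCH2NL, which had 139 counts in Hep3B and 17, 19 and 17 in Hep3B-C, Huh7 and Huh7-C, and the treatment of reads that match several genes was not stated, so both counts are uncertain.

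NOTCH3 had 17.95 CPM in Hep3B, 6.25 CPM in Hep3B-C, 18.3 CPM in Huh7 and 14.3 CPM in Huh7-C, from 52, 29, 83 and 62 counts. Both HCC libraries were above both HCSC libraries. The decrease was called in the Hep3B pair (ratio 0.348, 0.213 to 0.558, log2 fold-change -1.51, SE 0.33), and the ratio of 0.782 in the Huh7 pair had an interval of 0.554 to 1.10 that includes 1. The Hep3B value was -0.96 relative to the median of all genes. It was not called with TMM library sizes (-0.92) or with the length trend removed (-0.40). With GC and length trends removed it was called (-2.17).

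JAG1, the ligand most often linked to bile duct formation, showed the largest change of the 10 genes. It had 377 counts in Hep3B (130 CPM), 62 in Hep3B-C (13.4 CPM), 160 in Huh7 (35.3 CPM) and 85 in Huh7-C (19.6 CPM). Hep3B stood above the other 3 libraries, and each stem-like culture was below its parental line. In the Hep3B pair the ratio was 0.103 (0.0771 to 0.135) and the log2 fold-change -3.28 (SE 0.20, Audic-Claverie adjusted p = 1.3e-92), which was -2.72 relative to the median and lower than all but 3.3% of the genes of the pair. The call was kept in 7 of 8 alternative analyses, with values from -3.28 to -2.40, and it was lost when a biological spread (BCV) of 0.4 was assumed. The Huh7 ratio was 0.556 (0.422 to 0.728) and the log2 fold-change -0.84 (SE 0.19), which missed the 2-fold threshold. It passed that threshold with the length trend removed (-1.12) and with GC and length trends removed (-1.13).

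JAG2 was low, with 14.2 CPM in Hep3B, 7.54 CPM in Hep3B-C, 1.76 CPM in Huh7 and 2.54 CPM in Huh7-C, from 41, 35, 8 and 11 counts. The Hep3B ratio of 0.533 (0.329 to 0.857) and the Huh7 ratio of 1.44 (0.527 to 4.12) were not called. At 8 and 11 counts a difference in the Huh7 pair was not detectable unless it was large.

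The biliary marker list was also mostly lower in Hep3B-C. Of 6 biliary markers, 4 were called down-regulated and 1 up-regulated there, beside 30.4% and 13.2% of all genes. Their median was -1.52 on the log2 scale, beside -0.55 over all genes. In Huh7-C, 0 of 6 were called, beside 8.33% of all genes. The part of these marker changes in the receptor and ligand values was not tested. In a bulk culture, fewer cells of a type and less RNA per cell cannot be told apart.

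Of the targets, HES1 had the narrowest range of levels and was not called in either pair. This transcriptional repressor had 107 counts in Hep3B (36.9 CPM), 206 in Hep3B-C (44.4 CPM), 197 in Huh7 (43.4 CPM) and 152 in Huh7-C (35.1 CPM). The ratio was 1.2 in the Hep3B pair (0.947 to 1.53) and 0.808 in the Huh7 pair (0.649 to 1.0). Relative to the median of all genes the Hep3B value of 0.26 was 0.81, and with TMM library sizes its ratio was 1.82 (1.43 to 2.31). The sign of that value depended on the scaling, since it was -0.55 with the length trend removed and -0.40 with GC and length trends removed.

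NRARP, a Notch-induced ankyrin repeat protein that limits Notch signaling, had 7.60 CPM in Hep3B, 5.39 CPM in Hep3B-C, 2.65 CPM in Huh7 and 9.69 CPM in Huh7-C, from 22, 25, 12 and 42 counts. Huh7-C was the highest and Huh7 the lowest library. NRARP rose in Huh7-C with a ratio of 3.66 (1.89 to 7.65) and a log2 fold-change of 1.83 (SE 0.46, Audic-Claverie adjusted p = 0.00014), above 98.8% of the genes of that pair. The call was kept in 7 of 8 alternatives, all but the assumed BCV of 0.4. The Hep3B ratio was 0.709 (0.384 to 1.32) and was not called, and its log2 value of -0.50 was 0.05 relative to the median and 0.10 with TMM library sizes.

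HEY1, a repressor of the same family as HES1, was close to the limit of detection. It had 9 counts in Hep3B and 3 in its stem-like culture, and 0 in Huh7 and 1 in its stem-like culture. The count of 0 in Huh7 allows a level of up to 0.661 CPM. The Hep3B ratio of 0.208 had an interval of 0.0362 to 0.833 and was not called, except with the length trend removed (log2 value -2.43). No fold is given for the Huh7 pair.

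RBPJ, the DNA-binding protein on which Notch signals converge, had 336 counts in Hep3B (116 CPM), 193 in Hep3B-C (41.6 CPM), 71 in Huh7 (15.7 CPM) and 85 in Huh7-C (19.6 CPM). Both Hep3B-derived libraries were above both Huh7-derived libraries. RBPJ fell in Hep3B-C to a ratio of 0.358 (0.299 to 0.429, log2 fold-change -1.48, SE 0.13), or -0.93 relative to the median of all genes. It was called with GC and length trends removed (-1.32) and not called with TMM library sizes (-0.88). The Huh7 ratio was 1.25 with an interval of 0.904 to 1.74.

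MAML1, the coactivator that binds RBPJ together with the cut receptor, had 59.4 CPM in Hep3B, 23.3 CPM in Hep3B-C, 24.2 CPM in Huh7 and 44.3 CPM in Huh7-C, from 172, 108, 110 and 192 counts. The lower library was the stem-like culture in the Hep3B pair and the parental line in the Huh7 pair. The Hep3B ratio of 0.392 (0.305 to 0.501) was a called decrease (log2 fold-change -1.35, SE 0.18, or -0.80 relative to the median). It was not called with TMM library sizes (-0.75) or with the length trend removed (-0.51). With GC and length trends removed it was called (-1.70). The Huh7 ratio of 1.83 (1.44 to 2.33) missed the 2-fold threshold.

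**Figure D2:**
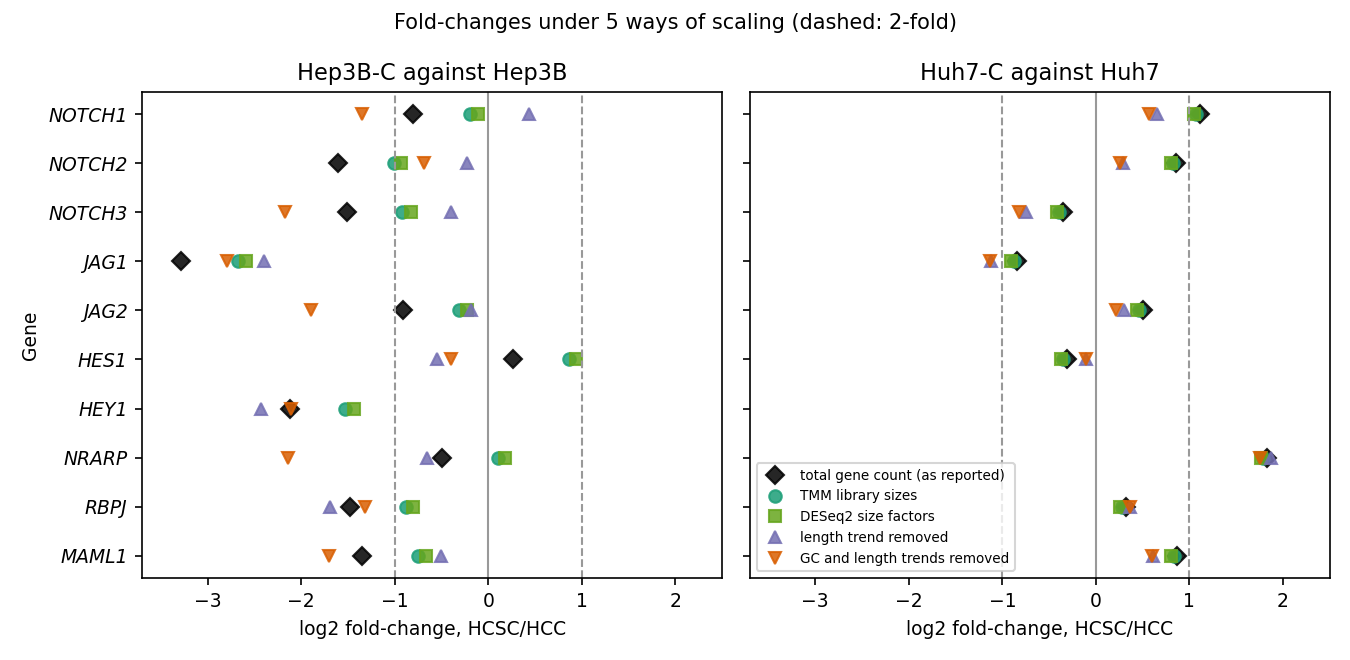
Log2 fold-change of each gene (HCSC over HCC) under 5 ways of scaling, in the Hep3B pair (left) and the Huh7 pair (right), with dashed lines at a 2-fold change. In the Hep3B pair JAG1 stays below the left dashed line under all 5, from -3.28 to -2.40, while NOTCH1, HES1 and NRARP have values on both sides of 0.

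In the Hep3B pair, 4 of the genes, picked here after their values were seen, lay below most genes of similar base composition. NOTCH1, NOTCH3, JAG2 and NRARP have transcripts with a GC content of 62.9%, 63.1%, 64.3% and 67.3%, all within the 20% of genes with the highest GC content. That group had a median of 0.97 on the log2 scale, and the 4 genes had -0.80, -1.51, -0.91 and -0.50. NOTCH1, NOTCH3 and JAG2, with 9295, 8071 and 5077 bases, are also within the longest 20% of genes, whose median was -1.5. With only the length trend removed the 4 genes were at 0.43, -0.40, -0.18 and -0.65, none of them called. With GC and length trends removed they were at -1.35, -2.17, -1.90 and -2.14, and all 4 were called down-regulated. These values still include the overall shift of the pair, whose median was -0.54 under that setting. The count of down-regulated genes among the 10 was then 7, beside 25.6% of all genes under that setting. It was 5 with total counts (30.4% of all genes) and 2 with TMM library sizes (18.1% of all genes). Which of these scalings describes the RNA content of the cells was not tested.

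**Figure D3:**
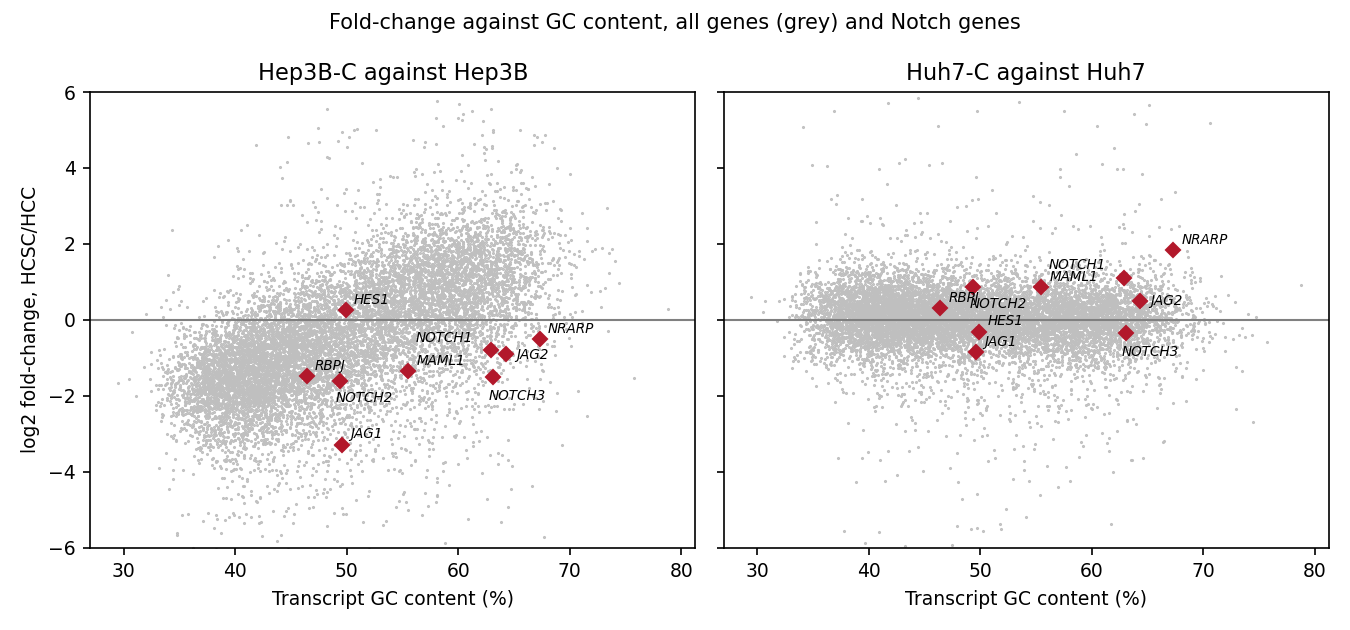
Log2 fold-change (HCSC over HCC) against transcript GC content for all genes with at least 20 counts in the pair (grey) and for the Notch genes except HEY1 (red), in the Hep3B pair (left) and the Huh7 pair (right), with the vertical axis limited to 6 in each direction. The grey cloud climbs with GC content on the left and is flat on the right, and NOTCH1, NOTCH3, JAG2 and NRARP lie in its lower part on the left.

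Levels between genes were compared per kilobase. HES1 was the highest of the 10 genes in Hep3B-C, Huh7 and Huh7-C, with 30.5, 29.9 and 24.1 RPKM, and the second highest in Hep3B with 25.4 RPKM, where RBPJ reached 46.4 RPKM. HES1 exceeded the RPKM of between 81.9% and 85.6% of the 16370 genes in each library, with genes not listed there counted as 0. In Hep3B the order below RBPJ and HES1 was JAG1 at 21.7 RPKM, MAML1 at 10.4 and NOTCH2 at 5.02 RPKM. NRARP, JAG2, NOTCH1, NOTCH3 and HEY1 followed, between 2.90 and 1.35 RPKM, and from NOTCH2 down the counting interval of each overlapped that of the next, as did those of HES1 and JAG1. In Hep3B-C, RBPJ at 16.6 and MAML1 at 4.07 RPKM followed HES1 with separate intervals, and the other 7 genes lay at or below 2.23 RPKM. In Huh7, RBPJ at 6.26, JAG1 at 5.89, MAML1 at 4.24 and NOTCH2 at 3.97 RPKM came after HES1, and the intervals of neighbours in that run overlapped. In Huh7-C, RBPJ, MAML1 and NOTCH2 had 7.85, 7.74 and 7.23 RPKM with overlapping intervals. JAG2 and HEY1 were the lowest in both Huh7-derived libraries, at or below 0.5 RPKM.

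**Figure D4:**
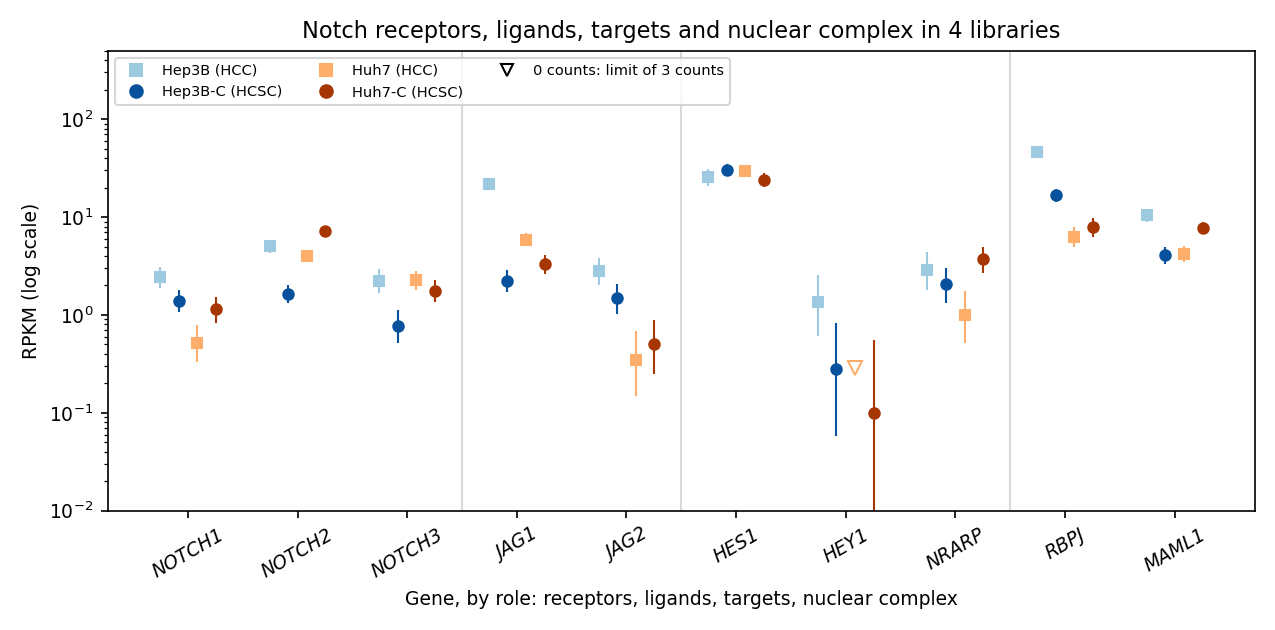
Level of the 10 genes in RPKM on a log axis in the 4 libraries, squares for HCC and circles for HCSC, with 95% Poisson intervals as bars and an open triangle at 3 counts where no read was counted. HES1 lies between 24.1 and 30.5 RPKM in every library, whereas RBPJ runs from 6.26 to 46.4 RPKM and JAG1 from 2.23 to 21.7 RPKM.

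Over both lines, edgeR's quasi-likelihood test with parental line as a block left 1 residual degree of freedom. It called 0.0342% of 11691 genes higher and 0.0428% lower in HCSCs, and 0 of the 9 Notch genes fitted, since HEY1 was removed by the count filter. Only JAG1 had an unadjusted p under the 0.05 level. It had a log2 fold-change of -1.89 (edgeR adjusted p = 0.999). With 1 library left out and the block kept, the value of the remaining pair was between -2.88 and -0.89, with no test. It was below both parental lines in 2 of 2 stem-like cultures. DESeq2 also called 0 of them. JAG1 and NOTCH3 were the 2 of 10 genes that were lower in both HCSC libraries than in both HCC libraries, a pattern of 16.9% of 13917 genes, and 0 of 10 were higher in both, beside 10% of all genes.

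Between lines of different origin, the same fit called 3.65% of genes higher and 4.82% lower in the Huh7-derived than in the Hep3B-derived libraries, and 0 of the 9 Notch genes. The log2 difference, Huh7-derived minus Hep3B-derived, was -2.0 for RBPJ (edgeR adjusted p = 0.192) and -2.28 for JAG2 (edgeR adjusted p = 0.181). RBPJ and JAG2 were the 2 genes with an unadjusted p under 0.05. Without Hep3B-C, and without the block, 3 of the genes were called lower in the Huh7-derived libraries, RBPJ at -2.49, JAG2 at -2.47 and JAG1 at -2.01. That fit called 15.7% of all genes lower and 13.1% higher. HEY1, JAG2, NOTCH1 and RBPJ, 4 of the 10, were lower in both Huh7-derived libraries than in both Hep3B-derived libraries, beside 21.0% of all genes, and 0 were higher in both, beside 22.9%.

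Of 62 other genes of the pathway, 58 were listed in the Hep3B pair, where 10 were called up-regulated and 22 down-regulated. Their median log2 fold-change of -0.57 was near the -0.55 of all genes. In the Huh7 pair, 56 were listed, 8 were up-regulated and 3 down-regulated, and the median was 0.11. The shares called, here and in each sublist below, can be read beside those of all genes. These were 13.2% up-regulated and 30.4% down-regulated in the Hep3B pair, and 4.19% and 4.15% in the Huh7 pair. Of 56 genes listed in both pairs, 7 were called in both. LFNG and HES6 were up-regulated in both, 0 were down-regulated in both, and MIB1, DTX1, EP300, SPEN and CTBP2 were called in opposite directions. Of the 13917 genes listed in both pairs, 4.51% were called in both, with 0.568% up-regulated in both, 1.49% down-regulated in both and 2.45% in opposite directions.

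**Figure D5:**
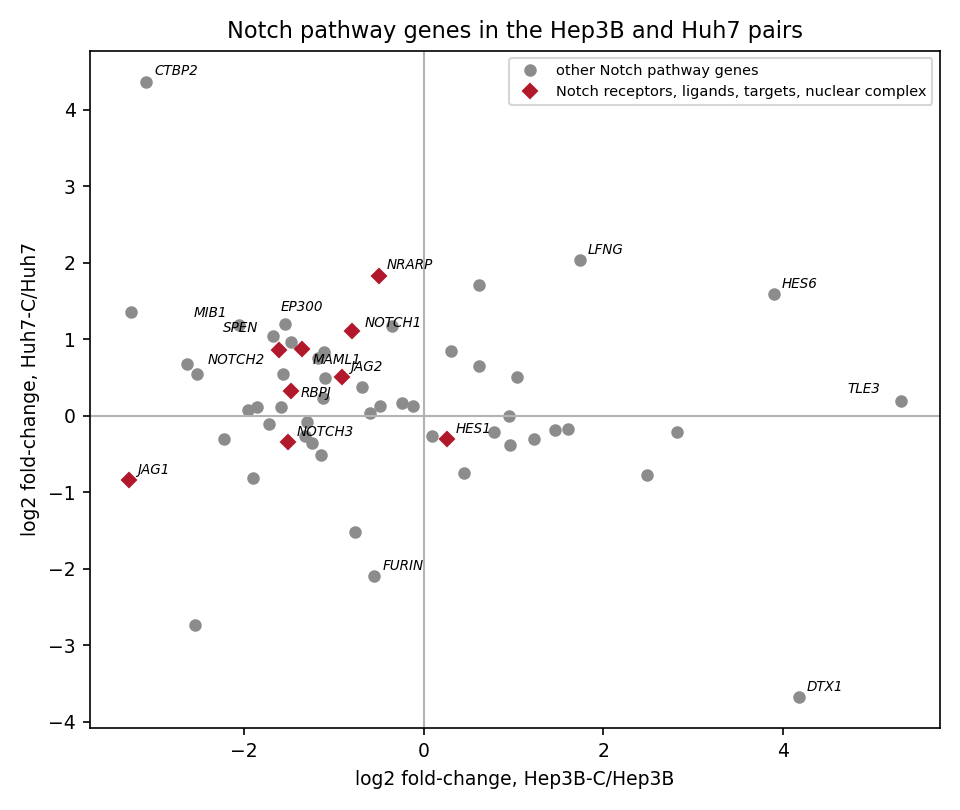
Log2 fold-change in the Hep3B pair (horizontal) against that in the Huh7 pair (vertical) for 9 of the 10 Notch genes (red) and 50 other pathway genes (grey), leaving out genes with 3 counts or fewer in both libraries of a pair. LFNG and HES6 lie in the upper right, JAG1 lies at the lower left with -3.28 and -0.84, and CTBP2 and DTX1 lie at opposite corners.

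Among other receptors and ligands, 2 of 5 listed genes were up-regulated in Hep3B-C and 0 of 4 were called in Huh7-C. DLK1, a non-canonical ligand-like protein of fetal liver, had 437 counts in Hep3B and 2951 in Hep3B-C (151 and 636 CPM, ratio 4.21, 3.81 to 4.67) and was not listed in the Huh7 pair. Its log2 fold-change of 2.07 became 0.24 with GC and length trends removed. DLK2, its relative, had 3 and 39 counts in the Hep3B pair (ratio 8.11, 2.58 to 41.0) and 33 and 27 in the Huh7 pair. Its Hep3B log2 value of 2.82 was 0.87 and not called with GC and length trends removed.

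Of 5 enzymes that add sugars to the receptor, 2 were up-regulated and 2 down-regulated in Hep3B-C, and 1 was up-regulated in Huh7-C. LFNG, a fringe glycosyltransferase that alters which ligands a receptor answers, had 8 and 45 counts in Hep3B and Hep3B-C and 5 and 21 in Huh7 and Huh7-C. The ratios were 3.51 (1.64 to 8.62) and 4.4 (1.61 to 14.9). The log2 value in the Hep3B pair fell from 1.74 to 0.19 with GC and length trends removed, while that in the Huh7 pair was 2.03 and 2.04. RFNG, another fringe enzyme, rose in Hep3B-C (50 to 246 counts, ratio 3.07, 2.26 to 4.25) but was at -0.27 on the log2 scale with the trends removed. POFUT1, which adds the first fucose, was not called in either pair (ratios 0.658 and 1.02).

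Of 9 genes for cleavage, 1 was up-regulated and 2 down-regulated in Hep3B-C, and 2 were down-regulated in Huh7-C. FURIN, the protease that matures the receptor, had 832, 910, 2675 and 594 counts in Hep3B, Hep3B-C, Huh7 and Huh7-C. Its level in Huh7 was the highest of the 4, and it fell in Huh7-C to a ratio of 0.232 (0.212 to 0.254, log2 fold-change -2.10, SE 0.07). Its Hep3B ratio was 0.682 and was not called. PSENEN, a subunit of gamma-secretase, had ratios of 1.37 and 0.594 and was not called in either pair.

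Of 12 listed genes for endocytosis and degradation, 2 were up-regulated and 5 down-regulated in Hep3B-C, and 2 were up-regulated and 1 down-regulated in Huh7-C. MIB1, the ubiquitin ligase that lets ligands signal, had 353 and 136 counts in the Hep3B pair (ratio 0.240, 0.196 to 0.294) and 45 and 98 in the Huh7 pair (ratio 2.28, 1.59 to 3.32). With GC and length trends removed the log2 values of MIB1 were -0.31 and 0.72. DTX1, of the Deltex ligases that act on the receptor, had 2 and 72 counts in the Hep3B pair (ratio 22.5, 6.0 to 189) and 33 and 2 in the Huh7 pair (ratio 0.0635, 0.00738 to 0.248). NUMB, an inhibitor of the receptor, and the ligase ITCH were down-regulated in Hep3B-C (ratios 0.407 and 0.399), both calls lost with TMM library sizes, and were not called in Huh7-C.

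Of 7 coactivators, 5 were down-regulated in Hep3B-C and 1 was up-regulated in Huh7-C. EP300, a histone acetyltransferase, had 287 and 98.7 CPM in the Hep3B pair (ratio 0.344, 0.306 to 0.386) and 75.8 and 174 CPM in the Huh7 pair (ratio 2.30, 2.02 to 2.62). The Hep3B call of EP300 was lost with TMM library sizes, and its Huh7 value of 1.2 on the log2 scale was 0.75 with GC and length trends removed. SNW1 and KAT2A, the most abundant of the list per kilobase, were not called in either pair, with ratios between 0.718 and 1.80.

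Of 14 corepressors, 2 were up-regulated and 8 down-regulated in Hep3B-C. In Huh7-C, 3 of 13 listed were up-regulated. SPEN, which represses RBPJ-bound genes, had 189 and 59.0 CPM in the Hep3B pair (ratio 0.313, 0.269 to 0.362) and 52.9 and 109 CPM in the Huh7 pair (ratio 2.06, 1.76 to 2.42). With GC and length trends removed the log2 values of SPEN were -1.02 and 0.42. CTBP2 had 135 and 25 counts in the Hep3B pair (ratio 0.116, 0.0722 to 0.178) and 2 and 49 in the Huh7 pair (ratio 25.7, 6.73 to 218). CTBP1 and HDAC1, the most abundant corepressors, were not called in either pair, with ratios between 0.832 and 1.13.

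Of 6 listed HES and HEY relatives, HES6 was the only one called in either pair. HES6, which opposes HES1, had 4 counts in Hep3B and 107 in Hep3B-C, and the Huh7 pair had 22 and 64. Each stem-like culture was above its parental line, with ratios of 16.7 (6.33 to 62.4) and 3.05 (1.85 to 5.19). The log2 values were 3.90 and 1.59, and 1.84 and 1.70 with GC and length trends removed. HES4 had ratios of 2.03 (0.892 to 5.18) and 0.761 (0.514 to 1.12) and was not called.

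Between lines, edgeR called 6 of the 51 other pathway genes fitted, 3 higher and 3 lower in the Huh7-derived libraries, beside 3.65% and 4.82% of all genes. DTX3 was lower in the Huh7-derived libraries (log2 difference -6.38, adjusted p = 0.000126), with 31 and 60 counts in Hep3B and Hep3B-C and 1 and 0 in Huh7 and Huh7-C. HEYL was higher there (4.13, adjusted p = 0.0125), with 1, 2, 29 and 38 counts in Hep3B, Hep3B-C, Huh7 and Huh7-C. DTX4 was also higher (2.82, adjusted p = 0.0283), as was TLE3 (3.47, adjusted p = 0.0254), although TLE3 had 2 counts in Hep3B and 159 in Hep3B-C. DLK1 and TLE4 were called lower. Both were not listed in the Huh7 pair and were set to 0 there for the fit, so no fold is given.

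The genes with the most similar profiles over the 4 libraries were ranked by Euclidean distance on mean-centred log2(CPM + 1), among 11355 genes, for the most abundant member of each role. For NOTCH2 they were CLUAP1 (0.098), PHLPP2 (0.135) and USP9X (0.152). For JAG1 they were ATF7IP2 (0.143), GHR (0.149) and RALGPS1 (0.168). HES1 was nearest to PFN1 (0.042), ZNF444 (0.075) and ATP5I (0.081). RBPJ was nearest to C20orf94 (0.061), TAF7 (0.078) and RHOBTB3 (0.102). Profiles of 4 libraries give little ground to tell near genes apart.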

How the data were processed

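The 4 mRNA libraries were sequenced by the authors on an Illumina Genome Analyzer II. Reads were filtered for adapters and low quality and aligned to NCBI Build 36.1 with NextGENe. The deposited values are raw counts of reads per gene with a gene length in bases. The gene annotation, strand and treatment of multiply matching reads are not given in the sources used here. Depth and the interval behind each value are given with the values.

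Members and gene lists were chosen with earlier results of these data known. Named were all 10 members, pathway genes called in both pairs or by edgeR, the 2 genes with the highest mean RPKM in each sublist, and the 3 nearest profiles. Log2 fold-changes had 0.5 added to each count, with Poisson standard errors. Pair tests were Audic-Claverie tests with Benjamini-Hochberg adjustment over all genes of the pair. Both lines were fitted together with edgeR 4.0.16 (TMM, filterByExpr, quasi-likelihood, adjusted p of 0.05). Genes not listed in a pair were set to 0 in its libraries for that fit. Parental line pairs the samples, and libraries of a line deviated together (Pearson r = 0.532 over 12614 genes). GC content came from GENCODE release 29 transcripts, for 98.0% and 98.2% of genes. Alternatives were TMM and DESeq2 1.42.0 size factors, a filter of 10 counts, 5 added, an exact binomial test, an assumed BCV of 0.4, removal of length or GC and length trends, DESeq2, no filter, no block, and leaving out each library. The scripts were tested on simulated data. Promoters were from RefSeq on GRCh38.p14, which is not the build of the alignment.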

Additional observations from a re-analysis of the deposited data

Results flagged for a closer look

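For 8 genes the change in the Hep3B pair and that in the Huh7 pair pointed in opposite directions, with counting intervals that excluded no change in each. The difference between the pairs was not tested, since each pair has 1 library a side. As log2 fold-change in Hep3B-C minus that in Huh7-C, the receptors NOTCH1 and NOTCH2 differed by -1.91 and -2.47 and MAML1 by -2.22. Among the other pathway genes the value was -3.23 for MIB1, -2.74 for EP300, -2.72 for SPEN, -7.46 for CTBP2 and 7.86 for DTX1. CTBP2 had 2 counts in Huh7, and DTX1 had 2 counts in both Hep3B and Huh7-C. Relative to the median of all genes in the Hep3B pair, NOTCH1 was at -0.24, and with TMM library sizes its interval there included no change.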

How the results depend on the processing

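No culture had a replicate library, so the spread between cultures was not measured within a pair. In the Hep3B pair, 2043 up-regulated genes became 3348 with TMM, 3549 with DESeq2 size factors, 597 with GC and length trends removed and 62 with an assumed BCV of 0.4, and 4708 down-regulated genes became 2799, 2553 and 169 with TMM, size factors and that BCV. Of the 10 Notch genes, 5 down-regulated became 2, 1 and 0 under those settings, 3 with the length trend removed and 7 with GC and length trends removed, where 4293 and 3879 of all genes were down-regulated. The 3 were JAG1, RBPJ and HEY1, of which HEY1 was a new call on 9 and 3 counts. The 7 left out NOTCH2 and held NOTCH1, JAG2 and NRARP as new calls. In the Huh7 pair the BCV left 13 of 620 and 12 of 614 calls and 0 of the 2 Notch calls. There, 1 Notch gene stayed up-regulated with TMM, size factors, 5 added, the length trend or both trends removed, and 1 became down-regulated with either trend removal. Signs turned in the Hep3B pair for NOTCH1 (0.43, length trend removed), HES1 (-0.55 and -0.40, length or both trends removed) and NRARP (0.10 with TMM, 0.18 with size factors). The cause was not tested.

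Over both lines, edgeR's 4 higher and 5 lower genes became 0 and 0 without the replicate block. The lower genes were 3 with total counts, 8 without a filter and 9 with DESeq2. Leaving out 1 library gave 0 to 11 higher and 0 to 18 lower, and for the line comparison 126 to 1631 higher (682 without Hep3B, 131 without Huh7-C), 151 to 1956 lower (984 without Hep3B, 167 without Huh7) and 0 to 3 Notch genes called. Each of those tested fits had no block, and with the block the remaining pair gave values without a test. Of 186 alternative values with a test for single Notch genes, 150 kept direction and side of the threshold, 23 lost the call, 8 gained it and 5 turned sign, and 12 values with no test kept their direction.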

Other observations

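Several pathway genes outside the naming rule, picked here after their values were seen, were called in 1 pair and not in the other. ADAM10, the protease of the first receptor cut, had 656 counts in Hep3B and 169 in Hep3B-C (ratio 0.161, 0.135 to 0.191) and 248 and 377 in Huh7 and Huh7-C, where the ratio of 1.59 (1.35 to 1.88) lay in the opposite direction and under the 2-fold threshold. It stayed called in the Hep3B pair with TMM library sizes. MAML2, a relative of MAML1, had 86 and 14 counts in the Hep3B pair (ratio 0.102, 0.0533 to 0.180) and 5 and 13 in the Huh7 pair. APH1B, a gamma-secretase subunit, had 66 counts in Huh7 and 9 in Huh7-C (ratio 0.143, 0.0625 to 0.288).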
